A study of Mus musculus with 2 samples.

Results

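Tubulin isotypes are the products of separate genes for alpha- and beta-tubulin, and 10 of them were followed here through the teratoma libraries of the study. They were taken by gene symbol from the 45777 genes of the deposited mm10 expression table, and all 10 were found. Alpha-tubulin was represented by Tuba1a, Tuba1b, Tuba1c and Tuba4a, and beta-tubulin by Tubb2a, Tubb2b, Tubb3, Tubb4a, Tubb5 and Tubb6. From general knowledge of where they are used, Tuba1a, Tubb2a, Tubb2b, Tubb3 and Tubb4a were placed in a neuronal class, and Tuba1b, Tuba1c, Tubb5 and Tubb6 in a general class of broadly expressed isotypes. Tuba4a, which is found in brain, muscle and platelets, was placed in neither.

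RNA-seq covered 1 teratoma library from E14 cells, a wild-type mouse embryonic stem cell (ESC) line, and 1 from E14-Sox2TA/WT cells, the same line with the Sox2 T258A change on 1 allele, called the mutant teratoma here. The mutant cells were CRISPR/Cas9-edited and grown from single sorted cells. The edited clones were kept in serum with leukemia inhibitory factor (LIF) and added inhibitors, which were removed before the experiments. For E14 cells, the study describes culture in serum with LIF, so this difference in culture goes together with the genotype. Teratomas grew under the skin of BALB/c-nu mice, which lack mature T cells, and were harvested on day 14. The study inoculated 3 mice per group, and how many teratomas went into a library is not given in the sources used here. The host's own blood, vessels and stroma are part of such a tumour. The labels name teratoma as the tissue, although their extraction text speaks of an ESC line.

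Gene-assigned reads numbered 50529171 for E14 and 49030281 for E14-Sox2TA/WT. Sox2 had 14585 and 8623 reads, and these counts do not separate the edited allele from the other. Reads on a set of 4 Y-linked genes numbered 5453 for E14 and 0 for the mutant teratoma, a difference that the labels do not mention. Mitochondrial genes took 5.17% and 9.70% of the TPM (a level scaled for transcript length and depth to the same sum in each library). With 1 library per group there is no replicate check, no p-value was computed, and a difference between these libraries cannot be told apart from one between single tumours.

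Microtubules are hollow polymers of alpha- and beta-tubulin pairs. They separate chromosomes in dividing cells and fill axons and dendrites in neurons, which is why neural tissue is among the richest in tubulin. The isotypes are nearly the same through most of their length and differ most in a short acidic C-terminal tail on the microtubule surface, where enzymes add or remove glutamate chains and, on most alpha-tubulins, a final tyrosine. Tubb3 (class III beta-tubulin) is used throughout the field as a marker of young neurons.

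The last 60 coding bases before the stop codon are shown because they hold this tail. They were read from GENCODE M21 transcripts, on the coding strand, and lie in exon 4 of each gene in GRCm38, the build of mm10. Capitals mark the in-frame codons GAA and GAG, which encode glutamate.
Tubb3 (chr8:123421620-123421679, plus strand): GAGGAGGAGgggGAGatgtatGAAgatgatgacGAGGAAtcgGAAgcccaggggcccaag
Tubb2b (chr13:34127474-34127533, minus strand): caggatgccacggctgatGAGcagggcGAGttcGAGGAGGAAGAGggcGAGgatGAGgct
Tubb2a (chr13:34074471-34074530, minus strand): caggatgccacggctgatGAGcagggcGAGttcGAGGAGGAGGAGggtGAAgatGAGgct
Tubb5 (chr17:35834985-35835044, minus strand): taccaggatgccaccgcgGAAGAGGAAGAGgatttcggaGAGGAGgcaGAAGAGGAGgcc
Tuba4a (chr1:75215625-75215684, minus strand): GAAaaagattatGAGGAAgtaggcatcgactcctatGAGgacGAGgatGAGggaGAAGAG

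Among these tails, Tubb2a and Tubb2b differed at 3 of 60 bases, each a silent change, so that the tail they encode is the same. Tuba4a ends in GAG and so, unlike most alpha-tubulins, encodes no final tyrosine. Of the 20 codons shown, 9 were GAA or GAG in Tubb5, and 8 in Tubb3, Tubb2a, Tubb2b and Tuba4a. Over the whole coding sequence, Tuba1a and Tuba1b shared 98.3% of bases and Tubb2a and Tubb2b 96.5%, but Tubb3 and Tubb5 shared 81.5%.

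Near-identical genes can share reads, so the overlap was measured on the transcripts. Of all stretches of 100 bases, 65.1% in Tuba1a, 69.5% in Tuba1b and 53.4% in Tuba1c also occur in a transcript of another gene. The shares were 36.9% in Tubb2a and 27.7% in Tubb2b, in each case mostly with the other. No such stretch was shared by Tubb3, Tubb4a, Tubb5, Tubb6 or Tuba4a. The split of reads among Tuba1a, Tuba1b and Tuba1c, and between Tubb2a and Tubb2b, is therefore uncertain, while at this stretch length the other 5 isotypes had no shared sequence.

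By more than 2-fold, all 5 neuronal isotypes were lower in the mutant teratoma, none of the 4 general isotypes passed that fold, and Tuba4a was higher. On a log2 scale with a pseudocount of 1 TPM, the median ratio was -2.27 for the neuronal class and -0.61 for the general class, a difference of -1.67. Under a rule with the study's stated limits, a fold change over 2 with a TPM of 10 or more in either library, 11578 genes could be called, and 18.7% of them were lower and 10.8% higher. All 10 isotypes met the TPM minimum, and 5 were lower and 1 higher. Over all genes tested the median log2 ratio was -0.18 on TPM and 0.01 on FPKM, which is not rescaled to a fixed sum, so that -0.18 is the level from which the ratios below depart. In bulk tissue, fewer cells of a type and less RNA per cell cannot be told apart.

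**Figure D1:**
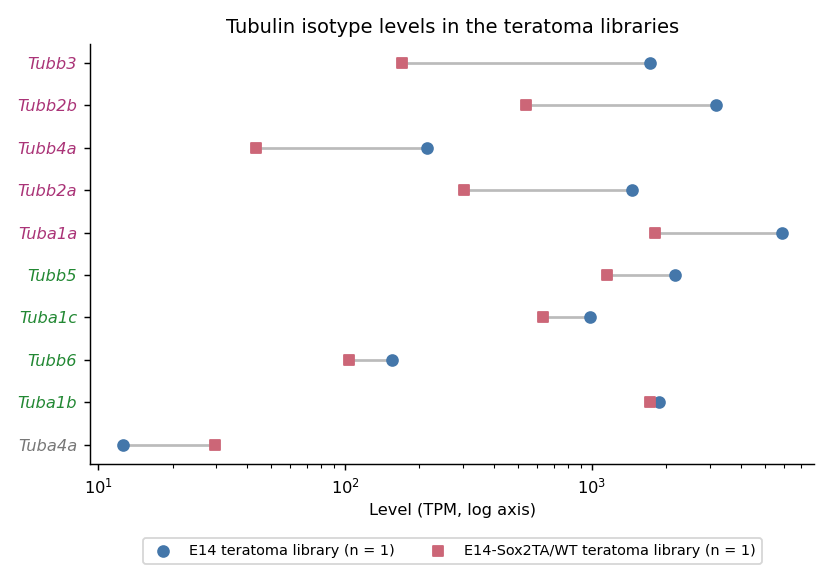
TPM (log axis) of the 10 tubulin isotypes in the E14 (circles) and E14-Sox2TA/WT (squares) teratoma libraries, 1 library each, with gene names in purple for the neuronal class, green for the general class and grey for Tuba4a. The gap is widest for Tubb3, from 1722 to 170, and narrowest for Tuba1b, from 1870 to 1722.

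Tubb3 showed the largest difference of the 10. It had 72057 reads and a TPM of 1722 in the E14 teratoma, and 7957 reads and a TPM of 170 in the mutant teratoma. This was 10.1-fold lower (9.88 to 10.4, the 95% Clopper-Pearson interval of the read counts, which covers counting error only here and for every interval given). The fold moved beyond that interval with the scaling, to 8.79-fold lower on reads per library total. Its rank by TPM among all genes went from 76 to 824. Only 46 of the 11578 genes tested, or 0.397%, had a lower log2 ratio.

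Tubb2b, which young neurons and neural progenitors use, was the most abundant beta isotype of the E14 teratoma, at a TPM of 3170 with 146598 reads. In the mutant teratoma it had a TPM of 540 and 27875 reads, 5.87-fold lower (5.80 to 5.95). Tubb2a, its close copy, went from a TPM of 1447 to 304, 4.76-fold lower (4.67 to 4.86). The genes lie 48999 bases apart on chromosome 13, and their log2 ratios differed by 0.30, with reads that may be shared between them.

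Tubb4a, a beta isotype of neurons and myelinating glia, was the least abundant of the neuronal class. Its TPM was 214 in the E14 teratoma and 43.5 in the mutant teratoma, 4.93-fold lower (4.71 to 5.15). It shares no stretch of 100 bases with a transcript of another gene. At this stretch length, the overlap found for Tubb2a and Tubb2b therefore does not apply to it.

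Tuba1a, the main alpha isotype of developing neurons, ranked number 5 of all genes in the E14 teratoma, with 224160 reads and a TPM of 5855. In the mutant teratoma it ranked number 77, with 76892 reads and a TPM of 1799. It was 3.26-fold lower (3.23 to 3.28), the smallest difference in the neuronal class and still beyond every general isotype.

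The general isotypes stayed within 2-fold, although Tubb5 and Tuba1c would pass a limit of 1.5-fold, which brings the lower members to 7. Tubb5, the common beta isotype of dividing cells, had a TPM of 2163 in the E14 teratoma and 1153 in the mutant teratoma, 1.88-fold lower (1.86 to 1.89). Tuba1c went from 985 to 634, 1.55-fold lower (1.53 to 1.58), and Tubb6, a minor beta isotype, from 155 to 103, a log2 ratio of -0.58. Tuba1b differed least, at 1870 and 1722. Its direction depended on the scaling, since its log2 ratio was -0.12 on TPM and 0.08 on FPKM and 0.06 relative to the median of all tested genes, and it had more reads in the mutant teratoma, 72354 against 70395.

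Tuba4a, an alpha isotype that encodes no final tyrosine, was the only member that was higher. It had 677 reads and a TPM of 12.6 in the E14 teratoma, and 1744 reads and a TPM of 29.6 in the mutant teratoma, 2.36-fold higher (2.16 to 2.58). Even so, it remained the least abundant of the 10. Platelets carry this isotype, and among 6 platelet and blood markers Pf4, a platelet chemokine, was higher, at 11.7 and 40.5 TPM. Only 3 of the 6 met the TPM minimum, with 1 higher and 0 lower, and the globin genes Hbb-bs, at 141 and 162, and Hba-a1, at 122 and 96.5, stayed within 2-fold. The other 3 are platelet genes under the TPM minimum, named after their values were seen. Ppbp, a platelet chemokine precursor, had 3 and 155 reads, and Itga2b, a platelet integrin, 79 and 159. Gp1ba, a platelet receptor gene, had 3 and 0, too few to give a direction. The summed TPM of the 6 markers, most of it from the globins, was 276 and 306. For the other tissues that use Tuba4a, 11 of 12 neuron markers were lower. The muscle markers Myh3, at 24.7 and 5.34, Acta1, at 33.6 and 18.2, and Tnnt3, at 34.3 and 22.4, had less TPM in the mutant teratoma, Myh3 alone by more than 2-fold. The part of any of these cell types in the Tuba4a ratio was not tested.

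The order of the isotypes differed between the libraries. In the E14 teratoma, from the highest TPM down, it was Tuba1a, Tubb2b, Tubb5, Tuba1b, Tubb3, Tubb2a, Tuba1c, Tubb4a, Tubb6 and Tuba4a. In the mutant teratoma it was Tuba1a, Tuba1b, Tubb5, Tuba1c, Tubb2b, Tubb2a, Tubb3, Tubb6, Tubb4a and Tuba4a. Tuba1a led in both, but at 3.13 times the TPM of Tuba1b in the first and 1.04 times in the second. Without replicates, no spread is known against which neighbours in this order could be compared.

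Shares within a library do not depend on how the libraries are scaled to each other. Among the 6 beta isotypes, Tubb3 made up 19.4% of the TPM in the E14 teratoma (19.3% to 19.5%) and 7.36% in the mutant teratoma (7.21% to 7.52%). The share of Tubb2b was 35.7% and 23.3%, and that of Tubb2a 16.3% and 13.1%. Tubb5 took 24.4% of the beta pool in the E14 teratoma and 49.8% in the mutant teratoma, and Tubb6 1.75% and 4.47%. Together, the 4 neuronal beta isotypes held 73.9% and 45.7%.

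Among the alpha isotypes, Tuba1a held 67.1% of the TPM in the E14 teratoma and 43.0% in the mutant teratoma, whereas Tuba1b held 21.4% and 41.2%. Tuba1c held 11.3% and 15.2%, and Tuba4a 0.144% and 0.708%. The share of Tuba1a among Tuba1a, Tuba1b and Tuba1c, whose reads are the hardest to assign, was 67.2% (67.1% to 67.4%) and 43.3% (43.1% to 43.5%).

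**Figure D2:**
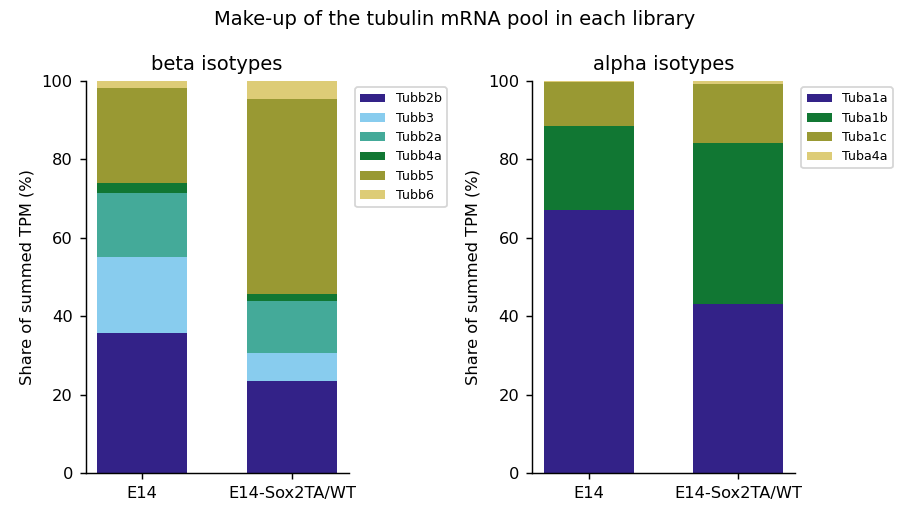
Share of the summed TPM (percent) that each isotype holds among the 6 beta isotypes (left) and the 4 alpha isotypes (right), 1 stacked bar per library. Tubb5 widens from 24.4% to 49.8% of the beta pool and Tuba1b from 21.4% to 41.2% of the alpha pool.

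Summed over the 10 isotypes, tubulin mRNA made up 1.76% of all TPM in the E14 teratoma and 0.650% in the mutant teratoma. The neuronal class summed to 12408 and 2856 TPM, 4.34-fold lower, and the general class to 5174 and 3612, 1.43-fold lower. The ratio of the neuronal to the general sum was 2.40 in the E14 teratoma and 0.791 in the mutant teratoma. Within the 10 isotypes, the alpha and beta sums did not keep step. Alpha TPM was 0.983 times beta TPM in the E14 teratoma, at 8723 and 8871, and 1.81 times in the mutant teratoma, at 4184 and 2314. All these sums leave out tubulin genes outside the 10, and the size of the gap depends on that choice. With Tubb4b and Tubb1 added, the beta sum was 9326 in the E14 teratoma and 2854 in the mutant teratoma.

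The genome offers a comparison of isotypes side by side, which is of use because the median ratio differed from chromosome to chromosome. Chromosome 15, which carries Tuba1a, Tuba1b and Tuba1c, stood at a median of 0.28 on the log2 scale over 475 genes, and chromosome 8, which carries Tubb3, a median of -0.67 over 635 genes. Tuba1a (chr15:98949847-98953501) and Tuba1b (chr15:98931429-98934390) lie 15456 bases apart, yet the neuronal gene was lower than the general one by 1.58 on the log2 scale. Reads may be shared between these 2 genes, so the size of that difference is uncertain. Leaving out the isotypes themselves, here and for every set of neighbours, the 37 genes tested within 1 Mb of Tuba1a had a median of 0.19, and 2 of them were lower than Tuba1a.

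Tubb3 (chr8:123411553-123422015) had 41 tested neighbours within 1 Mb, whose median was -0.85 and whose lowest was -2.51, so that Tubb3, at -3.33, lay below all of them. Its distance from its neighbours' median was -2.48, close to the -2.41 of Tubb2b from its 10 neighbours on chromosome 13. Tubb4a, on chromosome 17, lay -2.16 from the median of 30 neighbours. Tuba4a went the other way, at 1.18 against a median of -0.56, and lay above all of its 36 neighbours. Relative to neighbours, the median was -2.16 for the neuronal class and -0.56 for the general class.

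**Figure D3:**
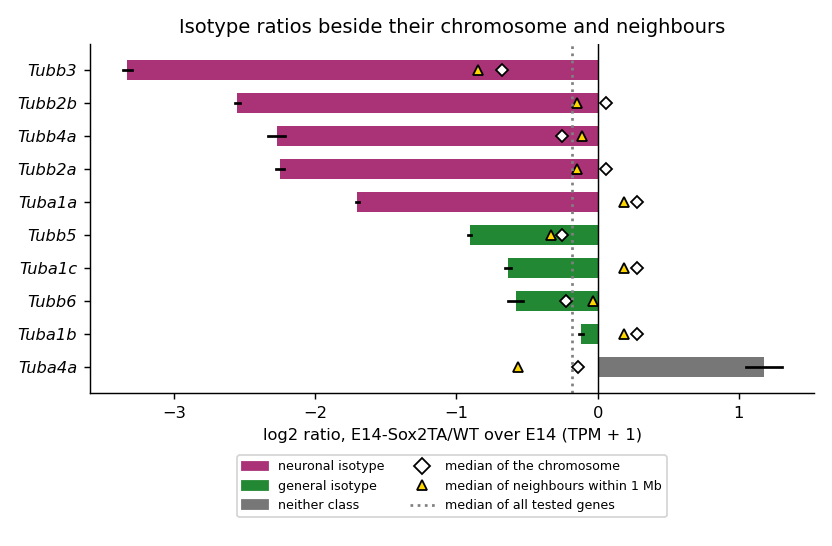
Log2 ratio of TPM + 1, E14-Sox2TA/WT over E14, for each isotype (bars, coloured by class), with the 95% counting interval (black line), the median of its chromosome (diamond), the median of neighbours within 1 Mb (triangle) and the median of all tested genes (dotted line). The 5 neuronal isotypes lie between -3.33 and -1.70 and the 4 general ones between -0.91 and -0.12.

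The upstream sequence of a lower and a general beta gene is shown to set a neuronal beside a general isotype. The RefSeq promoter table for GRCm38.p6 held 8 of the 10 members, with the 250 bases before the start searched on both strands. The motifs were CANNTG (the general E-box, not particular to proneural factors), ACAAAG and AACAAT (short Sox motifs), CCAAT and TATAAA. Capitals mark the matches, and the sequences stop where any GENCODE exon begins. The motif counts, in contrast, were taken over all 250 bases, which reach into GENCODE exons in most members. Only 0 bases came before any such exon in Tuba4a, 48 in Tuba1a, 68 in Tubb4a, 75 in Tuba1b and 121 in Tubb3. In Tubb5 it was 245, and in Tubb2a and Tuba1c all 250.
Tubb2a (chr13:34078009-34078258, minus strand): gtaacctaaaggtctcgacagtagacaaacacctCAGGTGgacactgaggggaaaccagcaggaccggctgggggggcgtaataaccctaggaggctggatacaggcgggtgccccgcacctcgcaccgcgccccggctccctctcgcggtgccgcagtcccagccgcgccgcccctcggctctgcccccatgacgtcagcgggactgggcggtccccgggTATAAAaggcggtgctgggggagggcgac
Tubb5 (chr17:35838307-35838551, minus strand): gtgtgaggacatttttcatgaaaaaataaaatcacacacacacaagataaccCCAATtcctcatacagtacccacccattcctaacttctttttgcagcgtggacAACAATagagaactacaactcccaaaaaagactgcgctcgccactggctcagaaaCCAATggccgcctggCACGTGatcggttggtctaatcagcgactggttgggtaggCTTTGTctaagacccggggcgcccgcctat

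Tubb5 was the only member of the 8 with either Sox motif, with 1 match of each, where 16.5% of the 32851 promoters in the table hold ACAAAG and 9.42% hold AACAAT. The E-box letters CANNTG, found in 66.2% of all promoters, had 1 match in Tuba1a, Tubb2a, Tuba1b, Tuba1c, Tubb5 and Tuba4a and 0 in Tubb3 and Tubb4a. CCAAT, found in 33.8% of all promoters, had 2 matches in Tubb5, 1 in Tuba1a, Tubb3 and Tuba1c, and 0 in Tubb2a, Tubb4a, Tuba1b and Tuba4a. TATAAA occurred in Tubb2a alone, against 12.4% of all promoters. These matches are descriptions of letters in a window and did not divide the isotypes by class. Where the window reaches into a GENCODE exon, matches before and after the exon start were not counted apart.

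The remaining tubulin genes went both ways. Of 10 other tubulin genes, 6 met the TPM minimum, with 2 higher and 1 lower. Tuba3a and Tuba3b, alpha isotypes best known from testis, were near absent from the E14 teratoma. Tuba3a had 60 reads there and 1330 in the mutant teratoma, with a TPM of 1.60 and 31.9, a log2 ratio of 3.66 (3.30 to 4.05). Tuba3b had 66 and 1070 reads, with a TPM of 1.74 and 25.4, 14.6-fold higher (11.4 to 19.1). The genes share 12.3% of the 100-base stretches of Tuba3a. Tubb4b, a broadly used beta isotype abundant in cilia, was the most abundant of the list, at 455 and 540. Tubg1, the gamma-tubulin that seeds microtubules, went from 75.5 to 42.4. Tubg2, its brain-enriched copy, is named because it was the 1 lower gene of the list, and had 542 and 101 reads, 6.03-fold lower in TPM (4.87 to 7.53).

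Genes that fold new tubulin were nearly level. Tubulin needs the chaperonin CCT, the prefoldin complex and a set of cofactors to reach its native form. Of 21 such genes, all met the TPM minimum, 0 were lower and 2 higher, and the list median was 0.07 on the log2 scale. Cct5, a CCT subunit, had a TPM of 704 and 733, and Pfdn5, a prefoldin subunit, of 588 and 519. Vbp1, also of prefoldin, was 2.05-fold higher (1.95 to 2.15), at 62.7 and 128, and the cofactor gene Tbce 2.02-fold higher (1.83 to 2.23), at 13.5 and 27.2. Both lie near the 2-fold limit.

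Genes for the enzymes that modify tubulin were lower as a list. Of 29, 18 met the TPM minimum, and 9 of these were lower and 0 higher, against 18.7% and 10.8% of all genes tested. The median log2 ratio was -0.96. Among the lower genes, the fold intervals of Tpgs1 (1.91 to 2.17), Tpgs2 (1.92 to 2.16) and Vash2 (1.87 to 2.15) reached under 2-fold. Ttll1, 1.98-fold lower, and Vash1, 1.99-fold lower, lay just under the limit. In reads scaled by library total, Ttl was 1.92-fold lower and Tpgs1 and Vash2 1.77-fold lower, so these 3 calls depended on the scaling. Nicn1, a subunit of the tubulin polyglutamylase complex, went from a TPM of 70.5 to 22.7, 3.11-fold lower (2.91 to 3.31). Atat1, which acetylates alpha-tubulin, went from 75.2 to 25.3, 2.97-fold lower in TPM and 3.94-fold lower in reads scaled by library total. Sirt2, which removes that mark, went from 165 to 56.5, 2.92-fold lower (2.79 to 3.05). Svbp, the partner of the enzymes that remove the final tyrosine, went from 163 to 96.7. Of the gamma-tubulin ring complex, which nucleates microtubules, 0 of 8 genes passed 2-fold in either direction, with a median of -0.42. Tubgcp2 went from 62.4 to 33.5, Tubgcp3 from 45.2 to 25.7 and Mzt1 from 75.1 to 57.3.

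**Figure D4:**
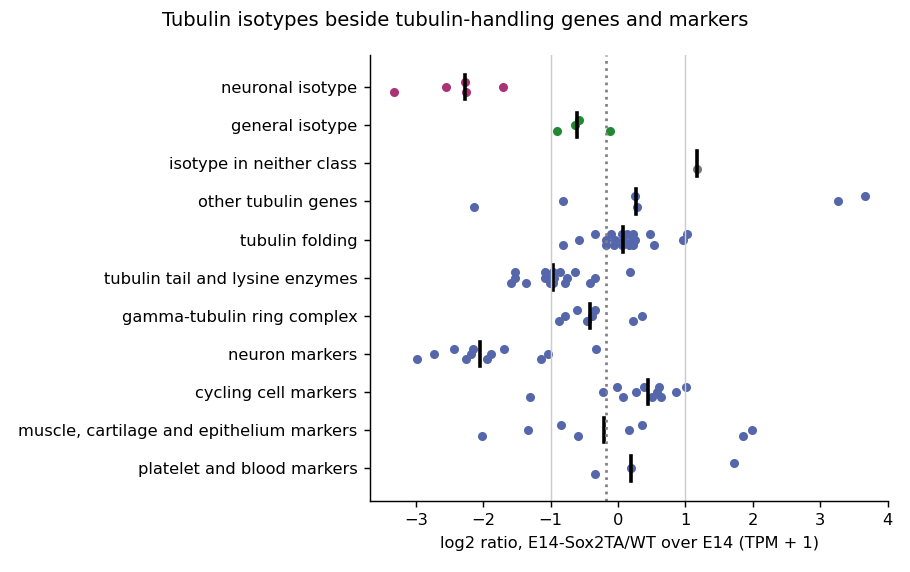
Log2 ratio of TPM + 1, E14-Sox2TA/WT over E14, for each gene of each list that met the TPM minimum (points), with the list median (black bar), the median of all tested genes (dotted line) and 2-fold lines (grey). The neuronal isotypes and the neuron markers lie furthest to the left, with medians of -2.27 and -2.05.

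Markers of cell types were read beside the isotypes, since a bulk sample holds many types. Of 12 neuron markers, 11 were lower and 0 higher, against 18.7% and 10.8% of all genes tested. The exception was Nefm, at 30.9 and 24.5 TPM, and Nefl, 2.09-fold lower, lay near the 2-fold limit. The list median was -2.05 on the log2 scale, and the summed TPM was 1526 in the E14 teratoma and 392 in the mutant teratoma, 3.90-fold lower. Gap43, of growth cones, went from 474 to 106, Stmn2, a regulator of neuronal microtubules, from 451 to 121, Dcx, which binds microtubules in migrating neurons, from 92.9 to 13.1, and Syt1, the calcium sensor of synaptic vesicles, from 50.8 to 5.53. The sum of the neuronal isotypes, 4.34-fold lower, moved with that of these markers. Their part in the isotype ratios was not tested.

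Of 12 markers of cycling cells, 1 was lower and 1 higher, with a median of 0.45 and a summed TPM of 1009 and 1196. Ccnb1 and Birc5, both of mitosis, had TPM of 87.5 and 160 and of 115 and 173. Bub1, of the spindle checkpoint, was 2.05-fold higher, at 21.5 and 44.1, and Mki67, a proliferation marker, was 2.50-fold lower, at 137 and 54.7. Muscle, cartilage and epithelium markers went both ways, with 2 lower and 2 higher of 8 tested. The epithelial keratins Krt8 and Krt18 were higher, at 118 and 426 and at 78.8 and 315, and Myh3, of embryonic muscle, was lower, at 24.7 and 5.34.

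With 2 libraries, a likeness between genes comes down to a likeness of ratio. Among genes with a TPM of 100 or more in the E14 teratoma, the 3 closest to Tubb3 in log2 ratio were Dlk1 (-3.33, from 249 to 23.8 TPM), Tmem130 (-3.32, from 153 to 14.4) and Gnao1 (-3.39, from 251 to 23.1). Of these, Gnao1 lies on chromosome 8, as Tubb3 does.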

How the data were processed

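Counts, FPKM and TPM per gene were deposited by the authors in 1 table on mm10, from an Illumina NovaSeq run. Per the labels, bcl2fastq 2.20.0, Trimmomatic, HISAT2 2.1.0 and StringTie 2.1.3b were used, with no roles given, and hg19 is named beside mm10. The deposited counts are whole numbers and not normalized, FPKM are scaled for length and depth, and TPM are rescaled to a fixed sum in each library. Whether counting used strand is not given in the sources used here.

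Log2 ratios of TPM with a pseudocount of 1 were computed, and genes were called by the study's stated limits on fold change and TPM. Intervals are 95% Clopper-Pearson intervals of reads. Positions came from RefSeq GRCm38.p6, which matched 45679 of 45777 genes. The isotypes and lists were chosen with earlier results of these data known. Named were all 10 isotypes, from each other list, among genes that met the TPM minimum, the 2 most abundant by the larger of their TPM values and the 2 of greatest absolute log2 ratio, and the 3 genes closest to Tubb3. Tubg2, Ppbp, Itga2b, Gp1ba, Ttl, Ttll1, Tpgs1, Tpgs2, Vash1, Vash2, Nefl, Nefm, Acta1 and Tnnt3 were added after their values were seen. Alternatives were other scalings, pseudocounts, fold limits and members left out. Proteins were not analysed here, and the tails of some isotypes are not reported here. Python 3.11.15, pandas 2.3.3, scipy 1.17.1, Biopython 1.88, R 4.3.3 and edgeR 4.0.16 (TMM factors only) were used, and scripts were tested on simulated data.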

Additional observations from a re-analysis of the deposited data

How the results depend on the processing

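No paired analysis was possible because each group is a single library, so none could be left out either. Counting error is small at these depths, so most changes of scale exceeded it. The medians of the neuronal and the general class were -2.05 and -0.41 with FPKM, -2.08 and -0.41 with reads per library total, -2.20 and -0.53 with TMM factors, -2.20 and -0.53 with median-of-ratios size factors, and -2.09 and -0.42 relative to all tested genes. Relative to chromosome medians, the general class was at -0.53 and the difference between classes at -1.78. A pseudocount of 10 gave -2.22 for the neuronal class. Without Tubb2a, it was at -2.41 and the difference at -1.81. Without Tuba1a, Tuba1b and Tuba1c, the classes were at -2.41 and -0.74. Relative to neighbours within 1 Mb, a setting chosen after seeing the data, they were at -2.16 and -0.56. No setting turned the direction of a class median. Tuba1b was at 0.079 with FPKM, turning its sign. Tubb3, at -3.33 on TPM, was at -3.12 with FPKM, -3.26 with TMM factors and -2.66 relative to the chromosome median.

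At a fold change above 1.5, 7 members were lower and 1 higher, and above 3, 5 were lower and 0 higher. As a share of read counts, Tubb3 held 16.8% and 5.76% of the beta isotypes, and Tuba1a 65.7% and 42.0% of the 3 Tuba1 genes, against 67.2% and 43.3% of TPM. With Tubb4b and Tubb1 added, Tubb3 held 18.5% and 5.97%. Unlike TPM, read counts are not scaled for transcript length, and adding genes enlarges the sum from which a share is taken. The cause of the differences between the libraries was not tested.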
